A study of Mus musculus with 16 samples.

Results

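Zbp1, Isg15, Ifit1, Ifit2, Ifit3, Irf7, Stat2, Oasl2 and Usp18 are interferon-stimulated genes, and they are followed here through Lgr5-positive cells of the mouse small intestine after vertical sleeve gastrectomy (VSG) or sham surgery. They are 9 of the 48440 genes in each table of normalized counts, and each symbol matched 1 row in each of the 3 tables. They were picked by symbol with the differences between VSG and sham libraries already known, so those differences are given as a description with no test. The libraries were RNA-Seq of 16 samples of sorted cells from 7 female Lgr5-EGFP mice, whose Lgr5 locus drives a green fluorescent protein that labels intestinal stem cells (ISCs) and early progenitors. All mice had been fed a diet with 60% of its energy as fat for 16 weeks before surgery and were studied 4 weeks after it, and the groups were set by the operation. The methods give 8 to 16 weeks as the age of all animals used, without naming the step. For the duodenum and again for the jejunum there were 4 VSG and 2 sham libraries, drawn from 6 mice that gave both segments, and for the ileum there were 2 of each surgery. A replicate number stands for the same mouse in every segment, while a VSG and a sham mouse with the same number are different animals.

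Interferons are secreted proteins that bind receptors on neighbouring cells and signal through Janus kinases to STAT transcription factors. Type I and type III interferons act through a complex that holds Stat2 and Irf9 and binds interferon-stimulated response elements, and interferon gamma has its own receptor and an overlapping set of targets. In the intestinal epithelium type III interferon is known as a main antiviral signal, and stem cells are known to keep a set of interferon-stimulated genes on at rest. Among the 9 genes, Stat2 and Irf7 are transcription factors of the pathway, Zbp1 is a sensor of Z-form nucleic acid that can start necroptosis, and Ifit1, Ifit2, Ifit3 and Oasl2 are antiviral effectors. Isg15 is a ubiquitin-like modifier, and Usp18 removes it from proteins and also damps signaling at the type I receptor.

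The promoters of the genes were read for the response element itself, since it is the sequence through which the pathway is known to act. RefSeq (GRCm38.p6) gave a window for 7 of the 9 genes, and the 250 bases upstream of the start were searched on both strands. The letters GAAA, any 2 bases and GAAA again were present in 4 of these 7 genes, Isg15, Ifit1, Ifit3 and Stat2, and in 3.46% of the 27025 genes with a window. The matched stretches with 25 bases on each side are printed 5′ to 3′ on the strand of the gene, and the capitals mark the matches; TTTC letters in capitals are a match on the other strand.
Isg15: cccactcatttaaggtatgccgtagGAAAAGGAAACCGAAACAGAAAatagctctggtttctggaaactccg
Ifit1: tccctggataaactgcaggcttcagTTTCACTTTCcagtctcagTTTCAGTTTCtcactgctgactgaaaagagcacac
Ifit3: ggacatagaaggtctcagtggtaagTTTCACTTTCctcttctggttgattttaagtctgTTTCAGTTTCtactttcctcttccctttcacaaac
Stat2: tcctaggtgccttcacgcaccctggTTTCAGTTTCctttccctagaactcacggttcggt
The Isg15 stretch (chr4:156200850-156200921, minus strand) held 3 overlapping matches, 57 to 78 bases before the start. Ifit1 (chr19:34640760-34640838, plus strand) and Ifit3 (chr19:34583348-34583441, plus strand) each held 2 matches with the same letters, and Stat2 (chr10:128270251-128270310, plus strand) held 1 match. The letters TTCNNNGAA, the form of a STAT site, were found in Ifit2 alone among the 7 genes and in 8.13% of all genes with a window. Zbp1 and Usp18 had no window to read. Ifit2, Ifit3 and Ifit1 lie in that order within 1 cluster on chromosome 19.

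The values are counts normalized by the authors within each segment, so levels were not tested across segments. The most frequent value above 0 in each library was taken as 1 read, worth 0.586 to 2.07 normalized counts. The depth implied by it was between 10.9 and 63.6 M reads. Of the 144 values of the 9 genes, 17 were listed at 0, and since well expressed genes were also at 0 in these libraries, a 0 is reported only as listed. The libraries stood apart in several ways. The jejunal library of sham replicate 1 listed 13.02% of the genes with a mean above 50 at 0, against 1.65% to 6.70% in the other jejunal libraries, and it had a total of 47.1 M normalized counts against 33.5 to 34.5 M. Lgr5 itself was listed at 0 in that library and in the ileal library of the same mouse. The jejunal library of VSG replicate 1 held 196951 normalized counts of Fabp6, the ileal bile acid binding protein, where no other library of the jejunum exceeded 313 and the ileal ones held 29162 to 208801. In these bulk samples a lower level per cell and fewer cells of a kind cannot be told apart.

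Per kilobase of exon, Irf7 had the highest median level in every segment, with medians over libraries of 636, 890.4 and 490.2 normalized counts per kilobase in the duodenum, jejunum and ileum. Its neighbours in that order had medians within its range for duodenal and jejunal libraries, but not for ileal ones. Ileal Stat2 came next at 112.2 (range 49.6 to 172.6), wholly below the ileal Irf7 range of 183.0 to 1082.8. In the duodenum Stat2 followed at 356 (range 189 to 489) and Isg15 at 323 (108 to 837), inside the Irf7 range of 269.8 to 1460.1. In the jejunum Isg15 followed at 507 and then Zbp1 at 233, close to Stat2 at 228. Ifit2 was lowest in the duodenum and the jejunum, at 11.8 and 18.4, and Usp18 and Ifit2 had a median of 0 in the ileum.

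**Figure D1:**
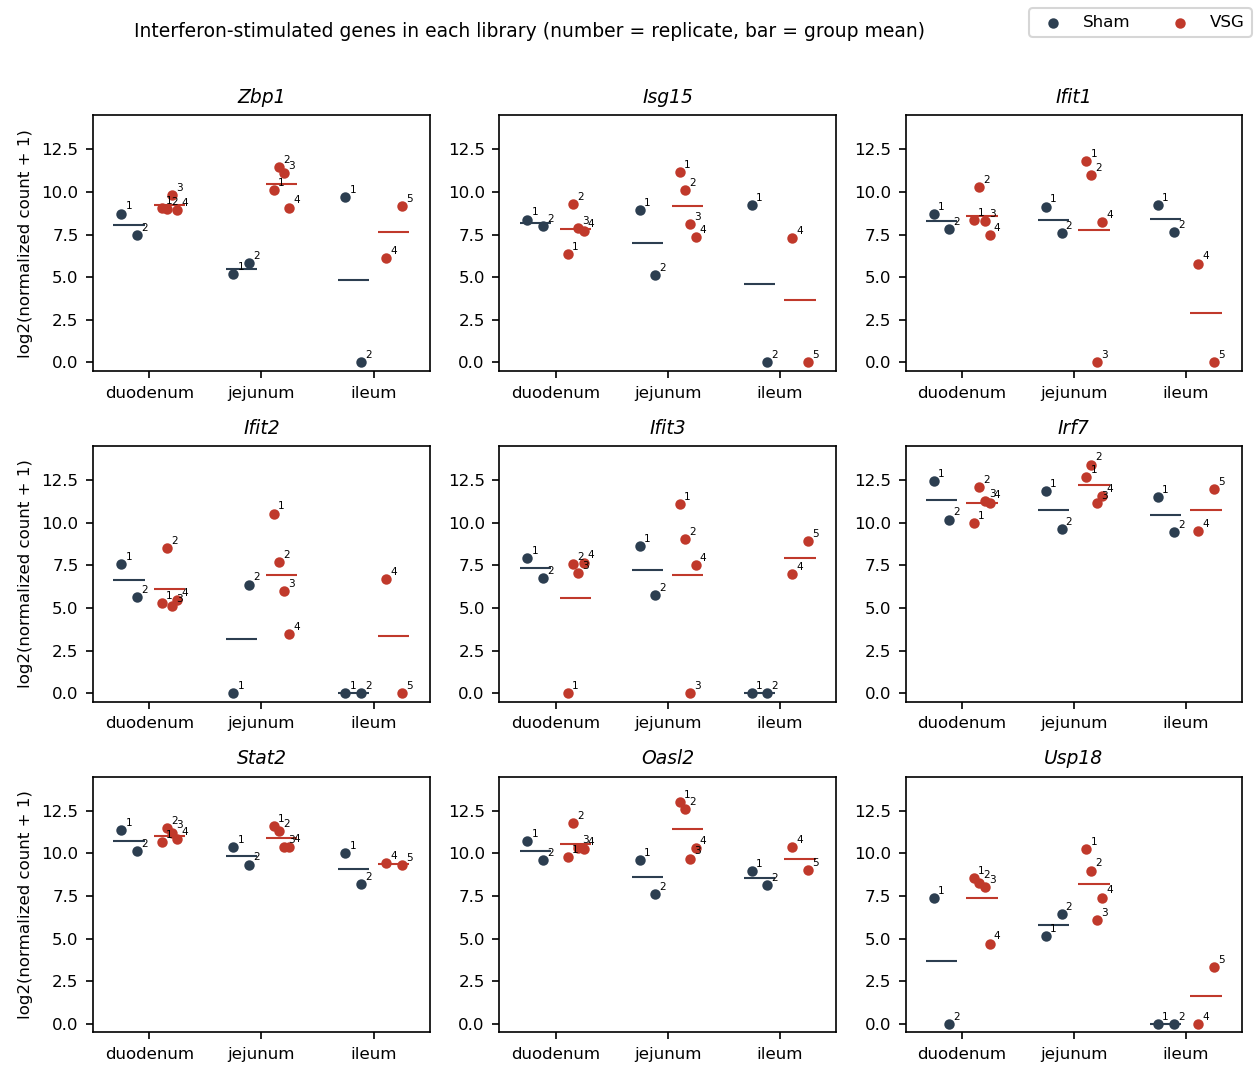
Each panel is 1 gene, with log2(normalized count + 1) on the vertical axis and the 3 segments along the horizontal axis; points are libraries numbered by replicate (dark for sham, red for VSG) and bars are group means on that scale. Jejunal Zbp1 shows both sham libraries (35.1 and 56.0 normalized counts) well below all 4 VSG libraries (543 to 2818), and points on the 0 line are the 17 values listed at 0.

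Zbp1 (ENSMUSG00000027514; chromosome 2, 173206612 to 173218923, minus strand of GRCm38) differed most between the surgeries in the jejunum. The jejunal level of VSG replicates 1 to 4 was 1100, 2818, 2253 and 543 normalized counts, while sham replicates 1 and 2 had 35.1 and 56.0. No VSG library came near the sham range. The group means were 1678 ± 1041 (SD, n = 4) and 45.6 ± 14.8 (SD, n = 2), a log2 fold change of 4.94 with a standard error (SE) of 0.84. Without sham replicate 1 the difference was 4.61, without VSG replicate 1 it was 5.06, and with both left out it was 4.73. In the duodenum Zbp1 had 536, 512, 915 and 498 normalized counts after VSG and 426 and 174 after sham surgery. The duodenal groups again did not overlap, but the highest sham library was close to the lowest VSG library, and the log2 fold change was 1.12 (SE 0.60). In the ileum the VSG libraries had 69.5 and 577 and the sham libraries 845 and 0, so the groups overlapped and the spread within sham surgery was wider than any difference.

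Measured in each mouse as jejunum minus duodenum on the log2 scale, the jejunal difference for Zbp1 was larger than the duodenal one by 3.82 (SE 0.85), and all 4 VSG mice lay above both sham mice. The VSG mice averaged 1.23 and the sham mice -2.59, and since the tables were normalized separately, only the gap between these averages can be read and not their signs. Irf7 and Oasl2 were the other genes of the 9 whose mice did not overlap in this measure, with 1.64 (SE 0.86) and 2.41 (SE 1.13), where 6.43% of the 14718 genes with a value in both segments had all VSG mice above.

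Stat2 (ENSMUSG00000040033; chromosome 10, 128270559 to 128292849, plus strand), which with Irf9 is part of the complex that binds the response element, had 3167, 2517, 1347 and 1359 normalized counts in the jejunum after VSG, against 1342 and 649.7 after sham surgery. All VSG libraries were above both sham libraries, by as little as 1347 against 1342 for the closest pair. The log2 fold change was 1.06 (SE 0.51) in the jejunum, 0.30 (SE 0.40) in the duodenum and 0.28 (SE 0.97) in the ileum. Duodenal Stat2 was between 1603 and 2898 after VSG, and the sham libraries at 2642 and 1122 enclosed most of that range.

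Irf7 (ENSMUSG00000025498; chromosome 7, 141262706 to 141266481, minus strand), which amplifies the type I response, had 6618, 10926, 2248 and 3009 normalized counts in the jejunum after VSG, against 3715 and 784 after sham surgery. VSG replicates 1 and 2 were above both sham libraries, and replicates 3 and 4 lay between them. Its log2 fold change was 1.46 (SE 0.72) in the jejunum, where it was 0.34 without sham replicate 2 and 2.58 without sham replicate 1, and -0.18 (SE 0.66) in the duodenum, where the highest library of all was sham replicate 1 at 5513. The Irf7 locus overlaps Phrf1 on the opposite strand, and whether the counting used strand is not given in the sources used here.

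Oasl2 (ENSMUSG00000029561; chromosome 5, 114896936 to 114912234, plus strand), an antiviral protein related to the oligoadenylate synthetases, followed Zbp1 in the size of its jejunal difference among the genes with separate groups. It had 8165, 6290, 833 and 1270 normalized counts after VSG and 794 and 192 after sham surgery in the jejunum. The first 2 VSG replicates were several times the other libraries, and replicate 3 was just above sham replicate 1. The log2 fold change was 2.79 (SE 0.95), with 3.28 when VSG replicate 1 and sham replicate 1 were both left out and 1.77 (SE 1.54) without sham replicate 2. In the ileum, both VSG libraries (1308 and 522) were above both sham libraries (504 and 277), and in the duodenum the sham libraries (1713 and 770) enclosed 3 of the 4 VSG libraries (891, 3570, 1300 and 1217).

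The 3 Ifit genes, whose proteins bind viral RNA, varied widely between mice of the same surgery. Ifit1 (ENSMUSG00000034459; chromosome 19, 34640871 to 34650009, plus strand) had 3640, 2070, 0 and 296 normalized counts in the jejunum after VSG, against 565 and 195 after sham surgery. Its mean was higher after VSG but its log2 fold change was -0.61 (SE 2.73), because the 0 in VSG replicate 3 weighs on the log scale. Without that library the log2 fold change was 1.98. Ifit3 (ENSMUSG00000074896; chromosome 19, 34583531 to 34588731, plus strand) had the same form in the jejunum, with 2154, 526, 0 and 182 after VSG and 401 and 53.6 after sham surgery. Its log2 fold change turned from -0.30 (SE 2.68) to 2.00 without VSG replicate 3. Ifit2 (ENSMUSG00000045932; chromosome 19, 34550694 to 34576419, plus strand) had 1489, 205, 62.0 and 9.96 after VSG and 0 and 82.2 after sham surgery. The log2 fold change of Ifit2, 3.73 (SE 2.61), turned to -0.67 when VSG replicate 1 and sham replicate 1 were both left out.

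In the ileum the Ifit genes parted. Both VSG libraries were below both sham libraries for Ifit1 (55.0 and 0 against 609 and 199), whereas Ifit3 was measured in both VSG libraries (125 and 482) and listed at 0 in both sham libraries. Ifit2 was above 0 in VSG replicate 4 alone (102). Of the 85-base stretches of Ifit3 transcripts, 37.1% also occur in Ifit3b, and 4.43% of those of Ifit1 occur in Ifit1bl2, so reads of Ifit3 and Ifit3b could be divided between them; the other 7 genes shared none. In the duodenum VSG replicate 2 stood out for Ifit1 (1234 against 177 to 332 in the other VSG libraries) and Ifit2 (363 against 33.2 to 43.1), and the duodenal sham libraries lay within the VSG range for Ifit1 (423 and 225) and Ifit2 (190 and 49.3).

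Isg15 (ENSMUSG00000035692; chromosome 4, 156199424 to 156200818, minus strand) was measured at 2281, 1122, 274 and 165 normalized counts in the jejunum after VSG, against 493 and 33.7 after sham surgery. The groups overlapped through VSG replicates 3 and 4, and the log2 fold change was 2.16 (SE 1.34). It was 0.25 without sham replicate 2 and 4.07 without sham replicate 1. In the duodenum it was -0.38 (SE 0.91), from 81.7, 633, 234 and 206 after VSG against 333 and 255. In the ileum Isg15 was listed at 0 in VSG replicate 5 and sham replicate 2.

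Usp18 (ENSMUSG00000030107; chromosome 6, 121245906 to 121270917, plus strand), which acts on Isg15, had 1237, 511, 67.0 and 169 normalized counts in the jejunum after VSG, against 34.3 and 85.5 after sham surgery. The groups overlapped through VSG replicate 3 alone, and the log2 fold change was 2.41 (SE 1.44). In the duodenum Usp18 had 374, 313, 259 and 25.3 after VSG and 165 and 0 after sham surgery, and its log2 fold change of 3.71 (SE 2.08) fell to 0.03 without sham replicate 2, the library listed at 0. It was near 0 in all ileal libraries, at most 8.92, and did not pass the filter there. The lincRNA Gm44148 overlaps Usp18 on the opposite strand.

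**Figure D2:**
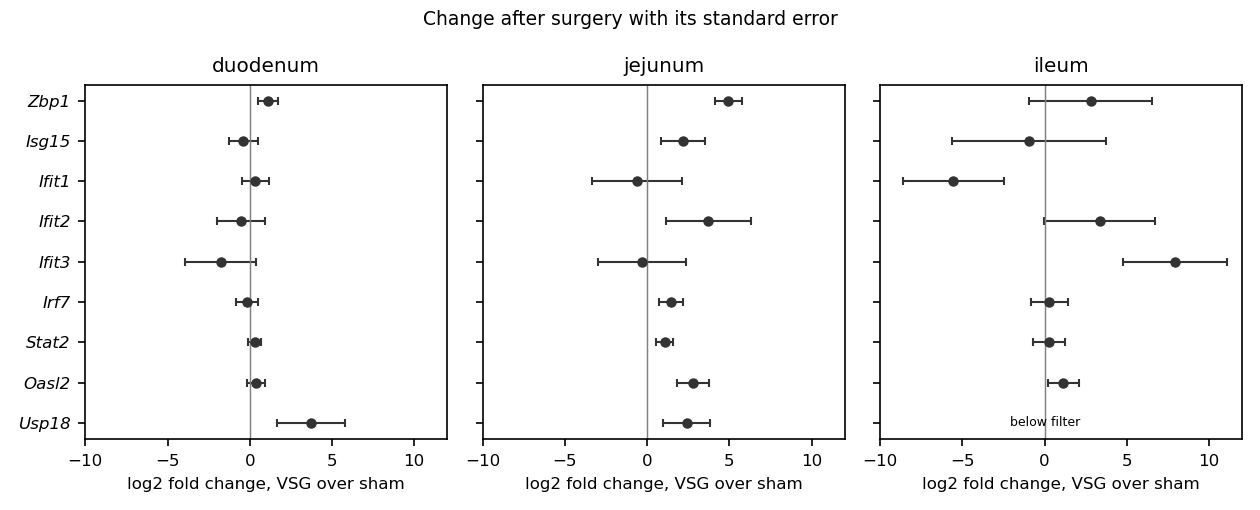
Points are the log2 fold change of VSG over sham on the log2(normalized count + 1) scale for each gene in the duodenum, jejunum and ileum, and bars are the SE of the limma fit. In the jejunum the bar of Zbp1 (4.94, SE 0.84) lies farthest from 0 relative to its length, and the bars of Ifit1 and Ifit3 span 0 in the duodenum and jejunum alike. Ileal Ifit2 and Ifit3 were listed at 0 in both sham libraries, so their ileal points are fitted values and no fold.

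Over the set, 7 of 9 genes had a jejunal log2 fold change above 0, with a median of 2.16 where all 15857 genes tested had a median of 0.11. In the duodenum 5 of 9 were above 0 with a median of 0.30 (all 16867 genes, 0.01), and in the ileum 6 of the 8 genes tested with a median of 0.71 (all 13853 genes, 0.24), or 4 of 6 with a median of 0.28 when Ifit2 and Ifit3, listed at 0 in both sham libraries, were set aside. These 4 ileal genes include Zbp1, whose log2 fold change there was 2.79 (SE 3.73). It was -2.07 without sham replicate 2, the library in which Zbp1 was listed at 0. The ileal mean of Zbp1 was lower after VSG, at 323 normalized counts against 422 after sham surgery. Over all genes tested, 50.7%, 55.0% and 57.0% were above 0 in the duodenum, jejunum and ileum. A gene was called where limma gave p under 0.05 and adjusted p under 0.2, with a log2 fold change beyond 0.5 in size and a mean above 50, and these thresholds called none of the 9 genes in any segment with trend and all libraries in the fit. Limma without trend called 1 of the 9 in the jejunum (Zbp1), where it called 61 of all 15857 genes. In the ileum it called 1 of the 8 tested (Ifit3, listed at 0 in both sham libraries), where it called 463 of all 13853 genes. The log2 fold change of jejunal Zbp1 was 5.27 without sham replicate 2. That of ileal Ifit3 was 8.92 without VSG replicate 4 and 6.97 without VSG replicate 5. With trend and all libraries, the thresholds called 0.0237% of all duodenal genes, 0.0126% of jejunal and 0.0% of ileal genes. The VSG libraries were all above the sham libraries for 1 of 9 genes in the duodenum (6.44% of all genes tested), for 3 of 9 in the jejunum (Zbp1, Stat2 and Oasl2; 6.59% of all genes) and for 2 of 8 in the ileum (Ifit3 and Oasl2; 17.0% of all genes), and all VSG libraries were below for 1 of 8 in the ileum (Ifit1; 11.6% of all genes). With sham replicate 1 left out, 9 of 9 genes were above 0 in the jejunum, and with VSG replicate 1 left out as well, 6 of 9 were, with a median of 1.36. The jejunal count of genes with all VSG libraries above was 1 of 9 with quantile normalization, for which the share over all genes is not given here. With 1 sham library left out such a count is easier to reach, so it is not set against the shares above. Because the genes were chosen on these contrasts, nothing is read from these counts against their backgrounds.

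The genes often shared their highest libraries. In the jejunum VSG replicate 1 was the highest library for 7 of the 9 genes and VSG replicate 2 for the other 2, and sham replicate 2 was the lowest for 4. In the duodenum VSG replicate 2 was highest for 5 of the 9. VSG replicate 1, the jejunal library with the high Fabp6 level, was not high in the duodenum, where its mean over the 8 genes other than Zbp1 was -1.07 on the log2 scale, taken from the segment mean, against 2.86 in the jejunum. In VSG replicate 2 the same mean was 1.47 in the duodenum and 1.87 in the jejunum.

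Zbp1 departed from the other 8 genes in single libraries. Jejunal VSG replicate 3 had the lowest mean of those 8 genes in its segment, -2.23, with Ifit1 and Ifit3 listed at 0, while its Zbp1 was 2.34 above the segment mean. In the jejunum, the sham libraries were at -3.63 and -2.97 for Zbp1 and at -0.69 and -1.43 for the 8 genes. Over all 16 libraries, the Pearson correlation of each gene with the mean of the other 8, after centring on each segment, was 0.89 for Stat2 (Spearman 0.92) and 0.88 for Oasl2 (0.95), and 0.67 for Irf7 (0.67). It was 0.40 for Zbp1 (0.39) and 0.28 for Ifit1 (0.35). The 16 points come from 7 mice and share the normalization of their segment, so these values are a description.

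**Figure D3:**
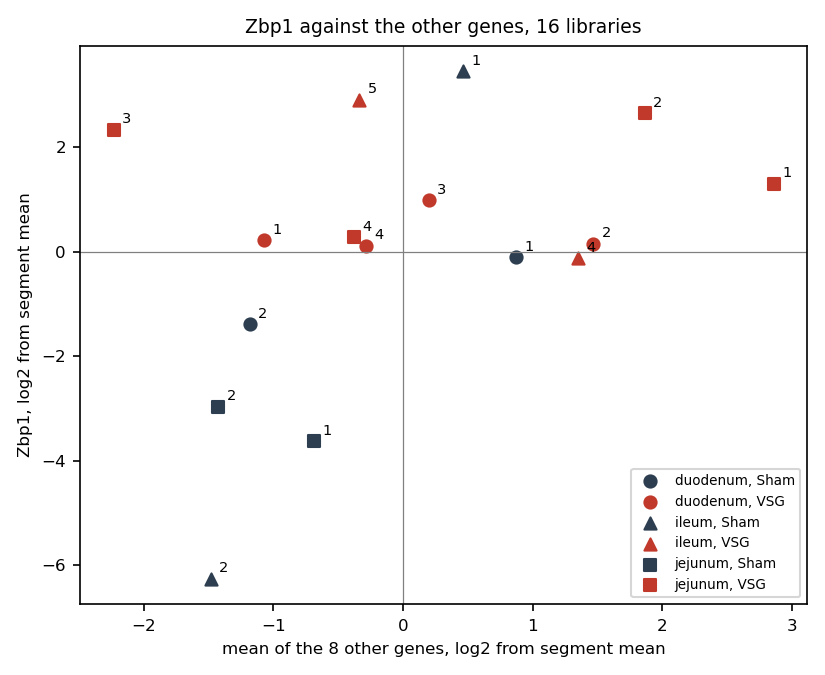
Each point is 1 of the 16 libraries, numbered by replicate, with the mean log2 level of the 8 other genes on the horizontal axis and that of Zbp1 on the vertical axis, both as the difference from the segment mean; shape gives the segment and color the surgery. Jejunal VSG replicate 3 sits at the upper left (-2.23 and 2.34), and the 2 jejunal sham libraries sit low for Zbp1 (-3.63 and -2.97).

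Markers of other cells were measured in the same libraries. The sort had removed CD45-positive and CD31-positive cells. Among the immune genes listed, Cd4, Cd79a, Cd8a, Itgax and Nkg7 were at 0 in all 16 libraries, and 1 to 8 of 19 rows were above 0 in a library. The summed level of the list was higher after VSG, at 790 to 1253 normalized counts against 441 to 715 in the jejunum and at 614 to 3244 against 321 to 444 in the duodenum. Itgam was the largest part of the jejunal sums, at 440 to 715 after VSG against 327 and 534, and was 2531 in duodenal VSG replicate 1. Of the immune genes tested, 5 of 6 had a log2 fold change above 0 in the duodenum (median 1.34) and 3 of 5 in the jejunum (median 0.47). Ptprc, which encodes CD45, was at 538, 196, 260 and 60.3 in the jejunum after VSG, against 0 and 106 after sham surgery. In the duodenum it did not overlap, at 276, 114, 1534 and 87.0 after VSG against 22.0 and 28.1. Its highest duodenal library, VSG replicate 3, was also the highest for Zbp1, while the summed immune level there was highest in VSG replicate 1. In the jejunum Ptprc was highest in VSG replicate 1 and Zbp1 in VSG replicate 2. The summed level of 10 enterocyte genes was lower after VSG in the duodenum (319297 to 644861 against 731155 or more), and 0 of the 10 had a log2 fold change above 0 in the duodenum or the jejunum. The 8 epithelial markers were above 0 in every library, and the 10 stem cell markers summed to 18289 in jejunal sham replicate 1 against 64790 in sham replicate 2 and 50903 to 69349 in the jejunal VSG libraries. All 5 tuft cell markers had a log2 fold change above 0 in the duodenum (median 1.88) and the jejunum (median 2.71), as did all 6 goblet cell markers (medians 0.55 and 1.18). Paneth cell markers were above 0 for 5 of 6 and 6 of 6 (medians 0.10 and 0.76). Of the endothelial and stromal markers tested, 1 of 8 was above 0 in the duodenum (median -3.12) and 3 of 5 in the jejunum. None of these marker genes was called in limma. At an unadjusted p under 0.05 the duodenum and jejunum had 6 and 4 enterocyte, 4 and 2 tuft and 1 and 3 goblet genes. The other lists had 0 and 1 Paneth, 3 and 0 endothelial or stromal, 1 and 0 immune, and 1 and 1 epithelial genes. No stem cell marker reached that level in either segment. The part of these cells in the levels of Zbp1 and the other genes was not tested.

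The rest of the interferon pathway was followed through 126 listed genes outside the 9, of which 124 names are in the tables. The limma fit called 0 of 110 duodenal, 0 of 110 jejunal and 0 of 99 ileal genes tested. At an unadjusted p under 0.05, 12 were higher and 3 lower in the duodenum, 5 higher and 0 lower in the jejunum, and 0 higher and 1 lower in the ileum. Over all genes those shares were 2.79% and 3.48%, 3.63% and 2.4%, and 2.09% and 1.19%. For the difference between jejunum and duodenum, 0 of 109 were called, with 3 higher and 2 lower at an unadjusted p under 0.05 (2.64% and 1.59% of all genes).

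At the head of the pathway, none of the 8 interferon genes listed had a level that passed the filter in any segment. Of the receptor genes, Ifnar2, a chain of the type I receptor, was named after its values were seen. It had 291, 555, 400.4 and 343 normalized counts in the duodenum after VSG, against 1307 and 1340 after sham surgery. Every VSG library was below both sham libraries, as for 1351 of all 16867 genes, with a log2 fold change of -1.77 (SE 0.48) that did not pass the correction (limma, adjusted p = 0.485). Of the 6 receptor genes tested in the duodenum, 2 were above 0 and 4 below. Il10rb was also below both sham libraries, at 1785, 2966, 3217 and 2533 against 4331 and 4364. Ifnar1 went the other way with overlap, at 2350, 1360, 2883 and 3793 against 1330 and 1395. Both were likewise named after their values were seen. In the jejunum the groups overlapped for Ifnar2, at 180 to 705 against 840.5 and 243. Irf9, which joins Stat2 in that complex, had 1266, 1831, 1974 and 1473 against 1098 and 929 in the jejunum, with no overlap and a log2 fold change of 0.67 (SE 0.41; limma, adjusted p = 0.760). Irf5 was the transducer with the largest duodenal change, at 273, 181, 95.5 and 188 after VSG and 0 and 2.25 after sham surgery. Its log2 fold change of 6.59 (SE 1.46), in which the sham values at or near 0 weigh heavily, did not pass the correction (limma, adjusted p = 0.394). In the jejunum the Irf5 groups overlapped at 0 to 276 against 210 and 229. All duodenal VSG libraries were above for 3 of 10 transducers (6.44% of all genes). The others were Irf1 (10928, 10414, 9739 and 9778 against 7245 and 5306) and Irf8 (5731, 6507, 7297 and 5473 against 3895 and 3635). In the jejunum Irf1 overlapped and Irf8 did not.

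Zbp1 is known to act through a small set of cell death proteins. Mlkl, the membrane-breaking effector of necroptosis, had 781, 620, 777 and 374 normalized counts in the jejunum after VSG, against 60.9 and 129 after sham surgery. All VSG libraries, replicate 3 among them, were above both sham libraries, as for Zbp1, with a log2 fold change of 2.77 (SE 0.85) and an adjusted p of 0.760 in limma. In the duodenum Mlkl overlapped (230 to 946 against 1044 and 249.7), and in the ileum both VSG libraries (647 and 79.7) were below both sham libraries (798 and 1806). Ripk3, the kinase that joins Zbp1 to Mlkl, had a jejunal log2 fold change of 0.48 (SE 0.43; limma, adjusted p = 0.799). Of the 9 listed genes of this group, 5 were above 0 in the jejunum, with a median of 0.12.

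Genes known mainly as targets of interferon gamma, among them guanylate binding proteins, immunity-related GTPases and antigen processing genes, had positive differences in the duodenum as well as the jejunum. In the duodenum 22 of the 23 tested were above 0 with a median log2 fold change of 1.59, 8 of them had an unadjusted p under 0.05 and 9 had no overlap, against 6.44% of all genes with all VSG libraries above. None passed the correction (limma, smallest adjusted p = 0.485). Gbp2, Gbp8, Iigp1 and Tgtp1 had both sham libraries listed at 0, and over the other 19 the median was 0.78, with 18 above 0. After VSG, duodenal Tgtp1 was at 746, 191, 66.3 and 28.9 normalized counts and Iigp1 at 552, 203, 19.9 and 62.5 (limma, adjusted p = 0.485 for both). Tgtp1 and Tgtp2 are near-identical copies whose reads could be divided by the counting. The count rested on the sham pair, since 15 of 23 were above 0 with a median of 0.38 without duodenal sham replicate 2, and 22 of 23 with a median of 2.86 without sham replicate 1.

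In the jejunum 20 of 24 genes of the interferon gamma list were above 0 with a median of 1.31, and 13 of 17 with a median of 0.58 once 7 genes with a group at 0 were set aside. Without VSG replicate 1 the count was 16 of 23 with a median of 0.83, without sham replicate 2 it was 15 of 23, and with VSG replicate 1 and sham replicate 1 both left out it was 18 of 22 with a median of 0.74. Irgm2, a GTPase of that list, had 1203, 1183, 363 and 662 normalized counts in the jejunum after VSG, against 71.5 and 127 after sham surgery. The groups did not overlap, and the log2 fold change was 2.99 (SE 0.83; limma, adjusted p = 0.760). Among 44 other interferon-stimulated genes tested in the jejunum, 36 were above 0 with a median of 0.67, and 33 of 44 with a median of 0.57 when VSG replicate 1 and sham replicate 1 were both left out. Without sham replicate 2 only 25 of 44 were above 0, and their median of 0.32 was close to that of all genes, 0.33. Leaving out VSG replicate 1 or 2 gave medians of 0.43 and 0.36. Oas1a, an oligoadenylate synthetase, had 4198, 2660, 300.0 and 408 after VSG and 0 and 237 after sham surgery, with a log2 fold change of 6.13 (SE 1.98; limma, adjusted p = 0.760) in which the 0 weighs heavily. In the duodenum 26 of 45 other interferon-stimulated genes were above 0 with a median of 0.35. Without duodenal sham replicate 1 it was 32 of 45 (median 0.51), and without sham replicate 2 it was 22 of 45 (median -0.12). In the ileum 14 of 38 other interferon-stimulated genes and 9 of 19 interferon gamma genes were above 0. These counts turned on the sham pair, with 22 of 36 and 12 of 16 above 0 without sham replicate 1 (medians 0.29 and 1.56) and 11 of 38 and 3 of 19 without sham replicate 2. B2m, the light chain of class I antigen-presenting molecules, was lower in both ileal VSG libraries (17568 and 16610) than in the sham libraries (47942 and 25626), with a log2 fold change of -1.04 (SE 0.38; limma, adjusted p = 0.736).

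**Figure D4:**
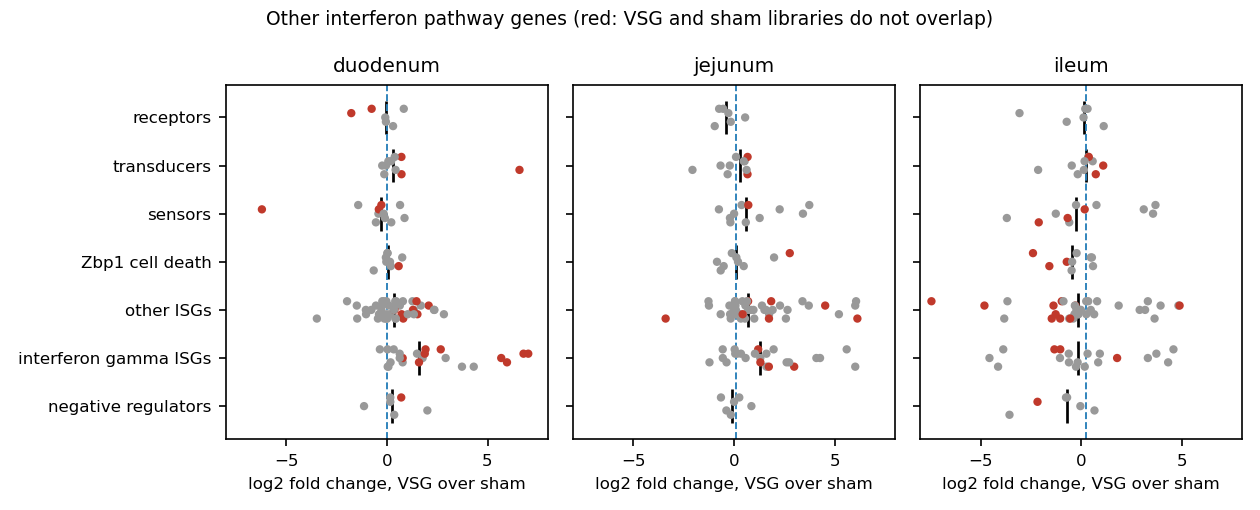
Each point is 1 pathway gene outside the 9, placed by its log2 fold change of VSG over sham in the duodenum, jejunum or ileum; rows are the gene lists, black bars the list medians, the blue dashed line the median of all genes tested, and red points genes whose VSG and sham libraries do not overlap. The interferon gamma list lies to the right of the dashed line in the duodenum (median 1.59) and the jejunum (1.31) and near it in the ileum (-0.17).

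For the difference between the duodenum and the jejunum, 3 of these genes are named. Their differences were the largest with an unadjusted p under 0.05, no overlap between mice and a mean above 50 in both segments. They were Irf5 at -8.66 (SE 2.60), the helicase gene Ddx60 at 2.64 (SE 0.95) and the peptide transporter gene Tap1 at 1.55 (SE 0.60), and none passed the correction (limma, adjusted p = 0.985 for each).

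The genes whose profile over the 16 libraries was most like the mean of the 9 were sought among 10705 genes with a mean above 50 in every segment. The highest Pearson correlations were those of Nfkbia, an inhibitor of NF-kB (0.84, Spearman 0.84), Efhd2 (0.82, 0.79), Parp12 (0.82, 0.82), Rtp4 (0.80, 0.83) and Gm5431 (0.80, 0.87). Parp12 and Rtp4 are themselves interferon-stimulated genes on the pathway list. A correlation above 0.5 was reached by 17 of 33 other interferon-stimulated genes (median 0.52) and by 9 of 15 interferon gamma genes (median 0.55), and by 4.78% of all genes (median 0.047). The receptors had a median of -0.01. All of these share the 7 mice and the segment normalization, and they are given as a description.

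**Figure D5:**
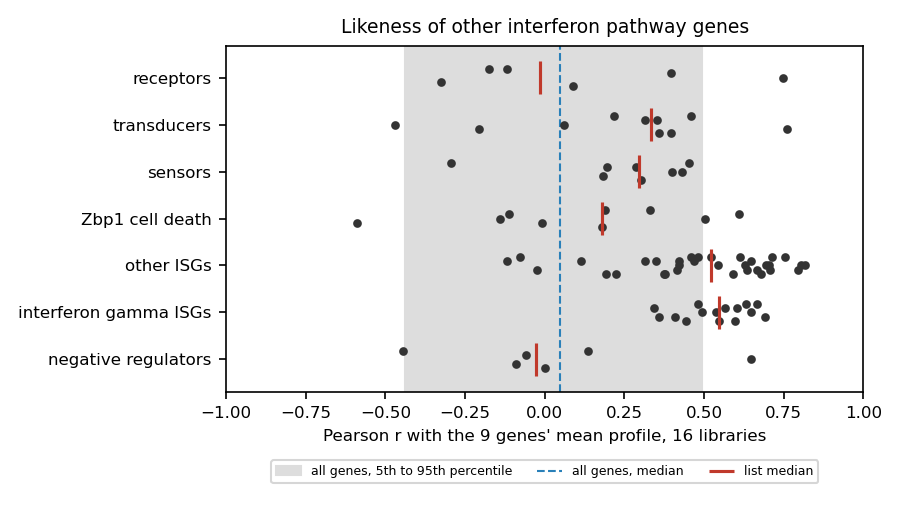
Each point is 1 pathway gene outside the 9, placed by its Pearson correlation with the mean profile of the 9 genes over 16 libraries after centring on each segment; red bars are list medians, the dashed line is the median of all 10705 genes and the grey band runs from their 5th to their 95th percentile (-0.44 to 0.50). The medians of the other interferon-stimulated genes (0.52) and the interferon gamma genes (0.55) lie just beyond the upper edge of the band.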

How the data were processed

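RNA-Seq libraries were made with a directional kit from polyA RNA and sequenced as 85 nt single-end reads. According to the submitters' processing notes and the methods, the authors mapped reads to mm10 with STAR 2.5.3a, quantified transcripts with Salmon 0.6.0 and normalized with DESeq2. The authors deposited these signal values as normalized counts, 1 table per segment with 48440 genes. The authors had excluded libraries with low mapping, below 25% in the duodenum and jejunum and below 15% in the ileum, and these were not used here. The authors' own comparisons of VSG with sham (fold changes, standard errors and p-values) were not used. Only 21.8% to 36.4% of values were whole multiples of 1 read (tolerance 0.01 reads), so no count model was run.

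For each segment on its own, limma (version 3.58.1, R 4.3.3) was fitted to log2(normalized count + 1) of all genes whose mean exceeded 10, letting the variance follow expression, and p-values were adjusted over all of them after Benjamini and Hochberg. Thus fold changes are on the log2(value + 1) scale, where the added 1 shrinks changes of low genes but a listed 0 can enlarge them. Duodenal Usp18, with a sham library listed at 0, changed 13.1-fold on that scale and 2.95-fold between the group means. The difference between segments was fitted on the jejunal value less the duodenal one of every mouse. A call needed p under 0.05 and adjusted p under 0.2, a log2 fold change beyond 0.5 in size and a mean above 50. Each library is 1 segment of 1 mouse. The 9 genes, the pathway lists and the marker lists were chosen with earlier results of these data known. The text names all 9, every called pathway gene, in each segment up to 3 pathway genes with the largest change among those with an unadjusted p under 0.05, a mean above 50 and no overlap, transducers and receptors by their levels, and the 5 genes most like the 9; other genes are said to be named after their values were seen, as are Ripk3 and Gbp8.

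Alternatives were pseudocounts of 0.5 and 10, a filter at 50 or none, total scaling, quantile normalization, limma without trend, a stricter adjusted p (0.05), the replicate number as a block, and each library left out in turn; leaving out jejunal VSG replicate 1 and sham replicate 1 together was added after seeing the data. The steps were tested on simulated data. Positions are from GENCODE M21, matched for 48058 identifiers. Where 0 is listed, up to 3 reads are possible from counting error alone. Tables were made in Python 3.11.15 (pandas 2.3.3, numpy 2.4.6, scipy 1.17.1) and plots with matplotlib 3.10.9.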

Additional observations from a re-analysis of the deposited data

Results flagged for a closer look

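In 5 of the 18 groups of 4 VSG libraries examined for the 9 genes, 1 library lay far from the other 3, where chance gives about 1 in 20 for independent, normally distributed values. These counts are skewed and the 9 genes share their libraries, so that rate need not hold here. Zbp1 in the duodenum was highest in VSG replicate 3, at 914.728 normalized counts against 498 to 536 in the others. In duodenal VSG replicate 2, Ifit1 was at 1234.41, Ifit2 at 362.947 and Oasl2 at 3570.1. In jejunal VSG replicate 1, Ifit2 was at 1489.2, against 9.96 to 205 in the others. The 4 duodenal values are in 2 mice, and the cause was not tested.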

How the results depend on the processing

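The sign of the jejunal log2 fold change was kept by Zbp1, Isg15, Irf7, Stat2, Oasl2 and Usp18 in 13 of 13 alternatives, and Zbp1 stayed between 4.46 and 5.40. In the duodenum only Zbp1 (0.48 to 1.76) and Usp18 kept theirs in 12 of 12, and in the ileum 4 of the 8 genes tested did. Some alternatives could not change a sign. The filter settings left the value of a tested gene as it was. Where the groups did not overlap, as for jejunal Zbp1, Stat2 and Oasl2, leaving out libraries could not change it either. The genes were chosen on these contrasts, so the counts are a description. Scaling each library to the same total moved the median of all genes from 0.11 to 0.34 in the jejunum and from 0.24 to 0.35 in the ileum, and that of the 9 genes from 2.16 to 2.39 in the jejunum. Quantile normalization moved the ileal median of all genes to 0.03. The median over the 9 genes ranged from -0.32 to 0.92 in the duodenum, 0.54 to 2.67 in the jejunum and -0.69 to 2.46 in the ileum when 1 library was left out, lowest without sham replicate 2 in all 3 segments. With limma without trend, pathway genes called rose from 0 to 1 in the duodenum, where 43 of all 16867 genes were called. They also rose from 0 to 1 in the ileum, where 463 of all 13853 genes were called. Of the 9 genes, limma without trend called 1 in the jejunum, where it called 61 of all 15857 genes, and 1 in the ileum. For Zbp1 the difference between segments was 4.79 without sham replicate 2. Leaving out 1 VSG library gave 0 calls of pathway genes in the duodenum. Other fits leave 1 sham library, or 1 VSG library in the ileum. That library is assumed to vary like the others, so the calls of such fits are not given. VSG and sham mice share only their numbers. With the replicate number as a replicate block, 0 pathway genes were called in the duodenum and 0 in the jejunum. Deviations of same-numbered libraries correlated at -0.049 and -0.026 in the duodenum and at 0.054 and 0.0099 in the jejunum.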
